A study of Homo sapiens with 2 samples.

Results

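The 30 genes described here encode the enzymes and regulators of cholesterol and fatty acid synthesis. They were chosen by symbol for their known role, with earlier results of these data known, and all 30 are among the 16424 genes listed in the deposited values. They comprise 4 regulators of the sterol regulatory element-binding protein (SREBP) system, 7 enzymes of the mevalonate steps, 11 enzymes of the squalene and sterol steps, the sterol transfer protein STARD4 and 7 lipogenic enzymes. Expression was measured by cap analysis of gene expression (CAGE) in PLC/PRF/5, a human hepatoma cell line. In CAGE, the capped 5′ end of an RNA is read as a short tag, so that a transcript gives a tag whatever its length and levels of different genes can be set side by side. Non-treated cells, whose medium held 0 µg/ml M2BPGi, gave 1 library, and cells kept with 3 µg/ml M2BPGi gave the other, both after 6 h. M2BPGi is a glycosylated form of Mac-2 binding protein that is recognised by a plant lectin. With 1 library per group, no difference below has a replicate check, and no test of the treatment was possible.

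Cholesterol is built from acetyl-CoA through mevalonate, isoprenoids, squalene and lanosterol, and fatty acids are built from the same acetyl-CoA. The liver is a main site of both pathways. When sterols are scarce, SCAP carries the SREBP proteins from the endoplasmic reticulum to the Golgi, where they are cut, and the released part activates the genes of both pathways. INSIG1 holds SCAP in the endoplasmic reticulum when sterols are plentiful.

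The authors deposited tags scaled to the library total (CPM), rounded to 2 decimals. To within 0.005 CPM, 100% of the nonzero values were multiples of the value of a single tag. Totals read from these steps were 24040209 tags in non-treated and 24862941 tags in M2BPGi-treated cells. Summed over the listed genes, the tags were 22630317 and 23471991. Some listed genes share the same pair of values, such as ANKRD23 and ANKRD39 (23.42 and 23.53 CPM). A tag may therefore be counted more than once in these sums, which are not a share of the totals. Log2 ratios compare M2BPGi-treated with non-treated cells after 1 CPM was added to each value, so that changes of weakly expressed genes are understated. They were computed for 13724 genes averaging 1 CPM or more over both libraries, and all 30 members passed this filter. Intervals are 95% Clopper-Pearson intervals of the log2 ratio of tags without a pseudocount, and they cover counting error only.

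Of the 30 members, 27 had a lower CPM in M2BPGi-treated than in non-treated cells and 3 a higher one. Their median log2 ratio was -0.25, against -0.05 over all 13724 genes, of which 57% were lower. The difference was small for most members. Only EBP was at least 1.5-fold lower, a size reached by 4.04% of all genes, and 0 members were at least 1.5-fold higher, a size reached by 1.6%. Relative to the median of genes of like CPM, SC5D was at least 1.5-fold lower too (log2 ratio -0.67). By at least 0.32 on the log2 scale, 8 members were lower and 0 higher, against 18.4% and 9.04% of all genes. The number of lower members at this size depended on the comparison. Relative to the median of genes of like transcript length, SREBF1, SCAP, SCD and LSS no longer reached it (-0.31 to -0.27). Relative to that of genes of like CPM more members did, among them FDPS and MVD (both -0.36). The summed CPM of the 30 genes was 8495 in non-treated and 6736 in M2BPGi-treated cells. SCD and EBP, the most abundant members, made up 53.7% of this decrease. Without both, the summed CPM was 5144 and 4330, and 25 of the other 28 members were lower.

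The members are well expressed, and the background differs with the level. Their mean CPM ran from 22.1 for HSD17B7 to 2006 for SCD, with a median of 164, whereas the median over all genes tested was 20.9. Among the 7037 genes averaging 20 CPM or more, a bound chosen after the data were seen, 51.1% were lower, 14.3% lower by at least 0.32 on the log2 scale and 1.9% at least 1.5-fold lower. The counting interval was wholly below 0 for 25 members and wholly above 0 for 2, against 35.1% and 33.6% of these 7037 genes. When all genes tested were split by mean CPM into 10 groups of like size, the group with the highest CPM held 19 members. In that group, 35.7% of 1373 genes were lower and the median log2 ratio was 0.11.

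**Figure D1:**
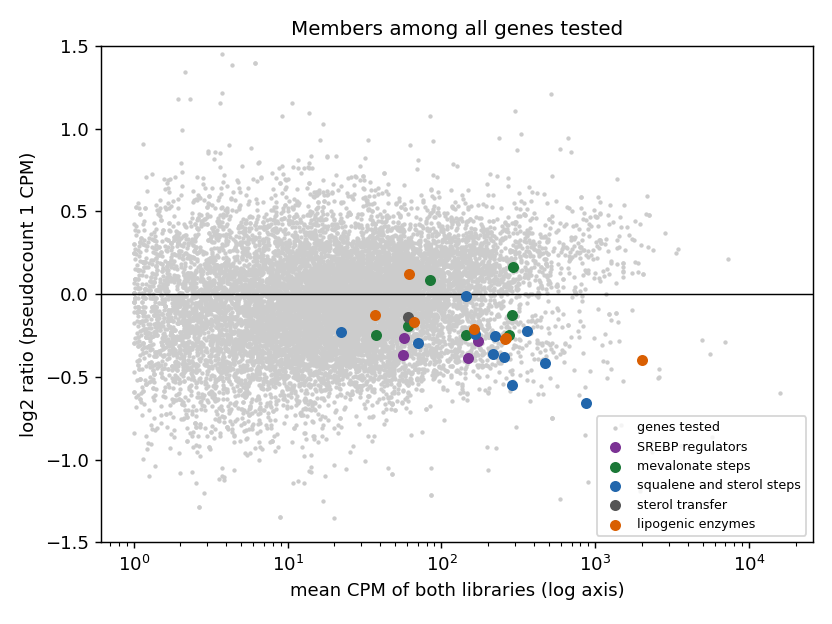
Log2 ratio, treated to non-treated (pseudocount 1 CPM), against the mean CPM of both libraries (log axis), with 1 point per gene; grey points are genes tested, without those beyond the range of the axis, and coloured points are the 30 members by role. Of the members, 27 lie below 0, and EBP lies lowest at -0.66.

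**Figure D2:**
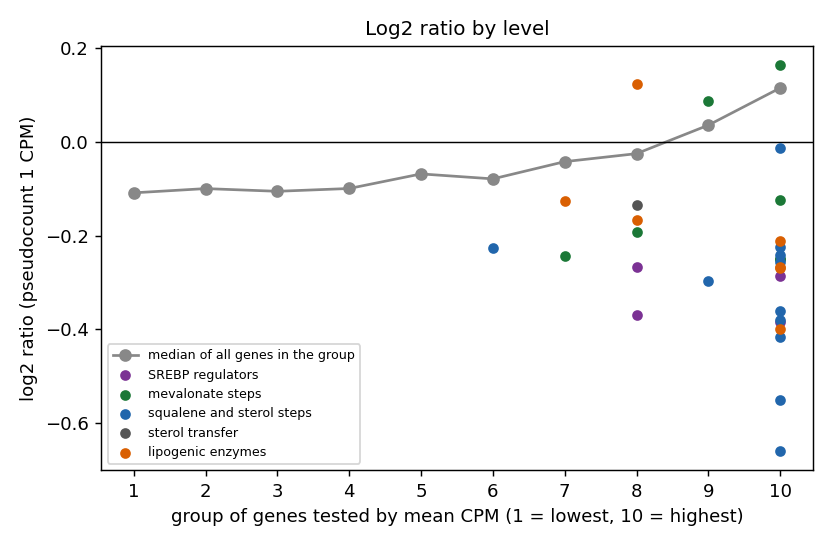
Log2 ratio (pseudocount 1 CPM) in 10 groups of genes ordered by mean CPM, 1 being the lowest; the grey line joins the median of all genes in each group, and coloured points are the members by role. The grey line starts at -0.11 and reaches 0.11 in the highest group, where 19 members lie.

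Promoter sequences were read from RefSeq (GRCh38.p14), in windows from 250 bases before to 50 bases after a gene's start. A window was found for 26 members. ACAT2, FDFT1, SQLE and FASN had no entry. Sequences are shown for 4 members, chosen after their values were seen, to set promoters of lower members beside that of a higher one. DHCR7 and SCD were among the 5 lowest members, NSDHL carried the most matches among the printed stretches, and ACLY was higher. For each window shown, the stretch is the longest before that start that lies in no exon of the GENCODE v29 annotation, written 5′ to 3′ on the gene's strand, with matches of CCAAT, or of ATTGG where the box lies on the other strand, in capitals. The DHCR7 stretch is chr11:71448436-71448643 on the minus strand and the SCD stretch is chr10:100346983-100347123 on the plus strand. The NSDHL stretch is chrX:152830813-152830966 on the plus strand and the ACLY stretch is chr17:41919023-41919272 on the minus strand.
DHCR7: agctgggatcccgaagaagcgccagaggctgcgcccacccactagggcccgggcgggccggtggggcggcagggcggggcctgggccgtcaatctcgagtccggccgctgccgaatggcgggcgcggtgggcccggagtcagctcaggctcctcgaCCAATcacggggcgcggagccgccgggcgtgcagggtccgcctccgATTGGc
SCD: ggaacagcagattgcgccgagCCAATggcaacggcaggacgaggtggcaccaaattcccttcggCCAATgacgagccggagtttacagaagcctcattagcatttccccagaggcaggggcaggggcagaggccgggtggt
NSDHL: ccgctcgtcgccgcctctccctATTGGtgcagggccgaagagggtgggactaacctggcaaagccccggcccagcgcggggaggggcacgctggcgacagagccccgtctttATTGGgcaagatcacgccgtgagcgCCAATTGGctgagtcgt
ACLY: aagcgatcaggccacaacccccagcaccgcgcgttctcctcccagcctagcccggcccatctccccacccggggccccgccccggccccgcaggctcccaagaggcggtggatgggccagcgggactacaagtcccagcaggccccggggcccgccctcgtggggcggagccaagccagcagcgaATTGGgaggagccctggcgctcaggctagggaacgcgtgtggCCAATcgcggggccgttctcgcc

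The CCAAT box is bound by NF-Y, a factor known to act beside SREBP at sterol-regulated promoters. It was present on either strand in 20 of 26 members (76.9%), against 39.7% of 27305 genes with windows of the same length. These 27305 genes were not limited to those expressed in these cells, whereas all members average 22.1 CPM or more. A background of expressed genes was not tested. DHCR7, SCD and ACLY each had 2 matches in the printed stretch. DHCR7 has a second RefSeq start, with 250 bases before it (chr11:71449044-71449293, not printed) that held 0 matches. In NSDHL there were 4, of which 2 overlapped as CCAATTGG, a match on each strand. The E-box CACGTG was found in SCAP, INSIG1, LSS and SC5D, or 15.4% of the members, and in 8.77% of genes. TCACNCCAC, a form of the sterol regulatory element searched on both strands, was found in SREBF2 alone (3.85%, against 1.39% of genes). It lay at -133 to -125 from the SREBF2 start and overlapped no other match. A match is a run of letters and not a measured site. The CPM are per gene, so the start that gave the tags is not known.

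All 4 regulators were lower after M2BPGi, against 57% of all genes, and their median log2 ratio was -0.33. SREBF1, which encodes the SREBP mainly known for fatty acid genes, had 167.8 CPM without and 128.3 CPM with M2BPGi (log2 ratio -0.39, interval -0.46 to -0.32). SREBF2, whose product acts mainly on cholesterol genes, had 191 and 156.5 CPM (-0.29, interval -0.35 to -0.23, and -0.18 relative to genes of like transcript length). For the escort protein gene SCAP, the values were 63.3 and 48.8 CPM (-0.37, interval -0.49 to -0.27). INSIG1, itself a target of the SREBP proteins, had 62.0 and 51.4 CPM (-0.27, interval -0.38 to -0.16). Thus the genes of the activators and of their inhibitor were all lower, and each of the 4 intervals was below 0.

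**Figure D3:**
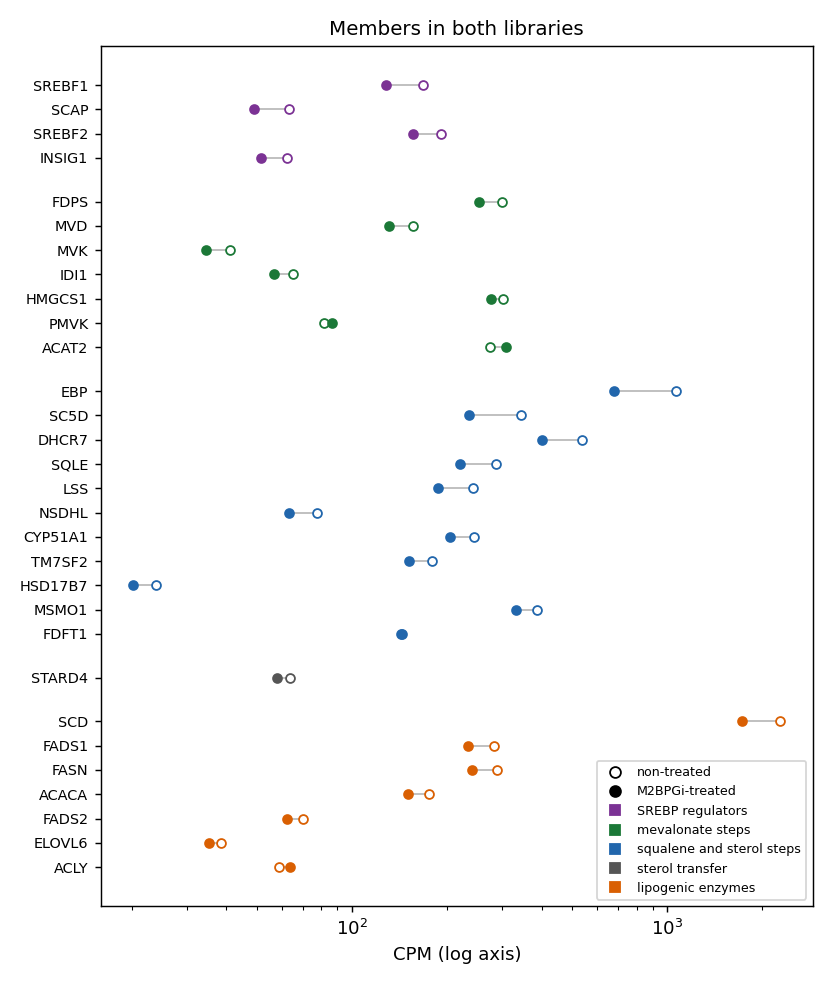
CPM of each member (log axis) in non-treated (open) and M2BPGi-treated cells (filled), joined by a line and grouped by role; each point is 1 library. The filled point lies to the left for 27 genes and to the right for ACAT2, ACLY and PMVK.

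Of the 7 enzymes of the mevalonate steps, 5 were lower and 2 higher, and 0 differed by 0.32 on the log2 scale. Of all genes, 57% were lower, and by this size 18.4% were lower and 9.04% higher. Relative to genes of like CPM, FDPS and MVD reached this size (both -0.36). The median log2 ratio of the 7 enzymes was -0.19, or -0.12 relative to genes of like transcript length. Their summed CPM was 1219 and 1145, a difference of -6.12%, and without ACAT2, left out after its value was seen, 944 and 837, a difference of -11.4%. ACAT2, which joins acetyl-CoA units at the entry of the pathway, had the highest log2 ratio of all members, with 274.8 CPM without and 307.8 CPM with M2BPGi (0.16, interval 0.12 to 0.21). HMGCS1, which makes HMG-CoA in the next step, had 300.8 and 275.7 CPM (-0.13, interval -0.17 to -0.08), with -0.055 relative to genes of like transcript length and -0.24 relative to genes of like CPM. ACAT2 was 0.048 (interval 0.001 to 0.097) relative to genes of like CPM, below ACLY (0.15) and PMVK (0.051). Its interval as deposited overlapped those of ACLY and PMVK, so that its place as highest is within counting error. ACAT2 and HMGCS1 are abundant, and their intervals lay on opposite sides of 0 under these alternatives too. That of HMGCS1 came close to 0 relative to genes of like transcript length (-0.10 to -0.007), as did that of ACAT2 relative to genes of like CPM. PMVK, which phosphorylates phosphomevalonate, had 81.6 and 86.7 CPM (0.09, interval -0.00 to 0.18), a difference not detectable at this depth. With the median of all genes set to 0 it was 0.14 (interval 0.05 to 0.23), and relative to genes of like transcript length 0.006. The kinase MVK, which acts before PMVK, had 41.1 and 34.5 CPM. MVD, which decarboxylates the product of PMVK, had 156.1 and 131.1 CPM. IDI1, the isomerase of isopentenyl diphosphate, had 64.8 and 56.6 CPM, with a log2 ratio of -0.19 that was -0.12 relative to genes of like transcript length. FDPS, which makes farnesyl diphosphate, had 300.2 and 252.3 CPM. The log2 ratios of MVK, MVD, IDI1 and FDPS lay between -0.25 and -0.19.

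The squalene and sterol steps held the lowest members. All 11 enzymes were lower, 5 of them by at least 0.32 on the log2 scale. Of all genes, 57% were lower and 18.4% lower by this size, and among genes averaging 20 CPM or more 51.1% and 14.3%. The summed CPM of the 11 enzymes was 3533 and 2633, a difference of -25.5%. LSS fell short of 0.32 relative to genes of like transcript length (-0.27). Relative to genes of like CPM, CYP51A1, TM7SF2, MSMO1 and NSDHL reached it too (-0.37 to -0.33). EBP (ENSG00000147155, chrX:48521158-48528716 in GRCh38), which shifts a double bond in the sterol ring, had 1069 CPM (25705 tags) without and 676.7 CPM (16825 tags) with M2BPGi. It was 1.58-fold lower (log2 ratio -0.66, interval -0.69 to -0.63), and 2.63% of all genes tested had a lower log2 ratio. SC5D (ENSG00000109929, chr11:121292453-121308694), the desaturase that acts after EBP, had 344.2 and 234.5 CPM (-0.55, interval -0.60 to -0.51). DHCR7 (ENSG00000172893, chr11:71428193-71452868), which makes cholesterol in the last step, had 535.7 and 401.2 CPM (-0.42, interval -0.46 to -0.38). EBP, SC5D and DHCR7 catalyse late, successive steps and had the 3 lowest log2 ratios, with intervals apart from one another. That of DHCR7 overlapped those of several other members, among them SCD, SREBF1, SQLE, LSS and SCAP, so that its place in this order is within counting error.

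The first enzymes after farnesyl diphosphate differed from each other. FDFT1, the squalene synthase, had 144.1 and 142.8 CPM, a log2 ratio of -0.01 (interval -0.08 to 0.05) that turned to 0.04 when the median of all genes was set to 0 and was -0.13 (interval -0.20 to -0.06) relative to genes of like CPM. Its neighbour SQLE, the squalene epoxidase, had 286.5 and 219.9 CPM (log2 ratio -0.38). LSS, which closes the ring to lanosterol, had 241.5 and 187.9 CPM (-0.36). The intervals of SQLE and LSS were below that of FDFT1. Among the enzymes that remove the methyl groups of lanosterol, CYP51A1 had 243.9 and 204.2 CPM and MSMO1 387.4 and 331.4 CPM. NSDHL, of the same demethylation, had 77.6 and 63.0 CPM. HSD17B7, the ketone reductase, had 23.9 and 20.3 CPM. TM7SF2, a sterol reductase, had 179.2 and 151.6 CPM. The log2 ratios of these 5 ran from -0.30 to -0.22, with intervals below 0. Relative to genes of like CPM, MSMO1 went from -0.22 to -0.34, and the interval of HSD17B7 included 0 (-0.33 to 0.02).

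STARD4, which carries cholesterol between membranes, had 63.6 CPM without and 57.8 CPM with M2BPGi (-0.14, interval -0.24 to -0.03). Its interval included 0 when the median of all genes was set to 0 (-0.19 to 0.02), and its log2 ratio was -0.049 relative to genes of like transcript length. This was closer to 0 than the median of the members.

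**Figure D4:**
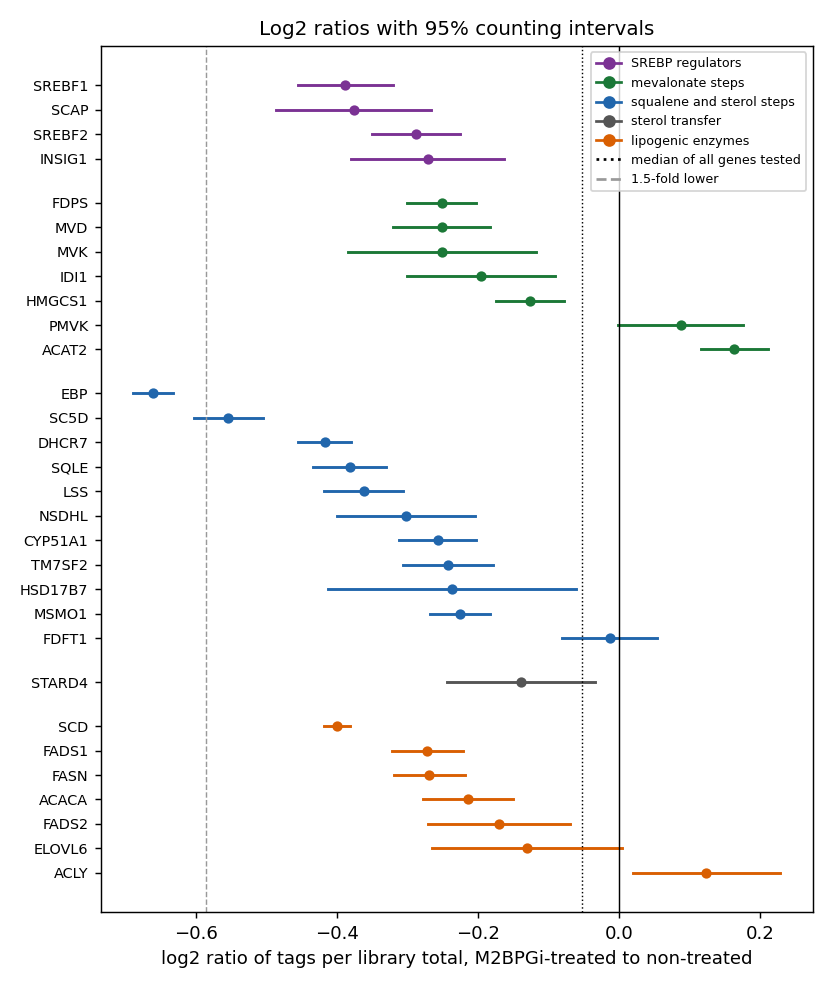
Log2 ratio of tags per library total for each member, without a pseudocount, by role; lines are 95% Clopper-Pearson intervals for counting error, the dotted line is the median of all genes tested and the dashed line marks 1.5-fold lower. Intervals of 25 members are below 0, those of ACAT2 and ACLY above 0, and the intervals of PMVK, FDFT1 and ELOVL6 include 0.

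Of the 7 lipogenic enzymes, 6 were lower and 1 higher, against 57% of all genes lower. Their median log2 ratio was -0.21, or -0.081 relative to genes of like transcript length and -0.33 relative to genes of like CPM. SCD (ENSG00000099194, chr10:100347124-100364834), which introduces the double bond of oleate, was the most abundant member, with 2282 CPM (54856 tags) without and 1730 CPM (43010 tags) with M2BPGi (-0.40, interval -0.42 to -0.38). It alone held 26.9% of the summed CPM of the members in non-treated cells. ACLY, which supplies cytosolic acetyl-CoA from citrate, had 58.6 and 63.8 CPM (0.12, interval 0.02 to 0.23, and 0.19 relative to genes of like transcript length). The other enzymes lay between. ACACA, the acetyl-CoA carboxylase, had 175.2 and 151.1 CPM. FASN, the fatty acid synthase that uses its product, had 288.6 and 239.6 CPM. Both had an interval below 0, and log2 ratios of -0.21 and -0.27 that became -0.078 and -0.13 relative to genes of like transcript length and -0.33 and -0.38 relative to genes of like CPM. The elongase ELOVL6 had 38.6 and 35.2 CPM, and its interval (-0.27 to 0.00) included 0. Its log2 ratio was -0.13, and -0.016 relative to genes of like transcript length. The desaturase FADS1 had 282.3 and 233.9 CPM and FADS2 69.8 and 62.1 CPM. The interval of FADS2 was below 0 (-0.27 to -0.07) but included 0 relative to genes of like transcript length (-0.18 to 0.02). ACLY was the only lipogenic enzyme with an interval above 0.

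The other genes of both pathways were taken from 9 lists. Of 99 genes, 89 were listed in the deposited values and 84 passed the filter. Of these, 63 were lower and 21 higher, with a median log2 ratio of -0.18. Over all 13724 genes, 57% were lower and the median was -0.05. The counts of each list below are to be read beside this share. At least 1.5-fold lower were 4, and 0 were at least 1.5-fold higher, against 4.04% and 1.6% of all genes. Those 4 genes were INSIG2, DOLK, ELOVL1 and GPAM, the lowest genes of their lists.

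In the list of SREBP processing, 9 of 10 genes were lower (median -0.26). The lowest was INSIG2, a second retention protein of SCAP, with 50.6 and 32.4 CPM (-0.63, interval -0.78 to -0.52). The highest was MBTPS2, one of the proteases that cut the SREBP proteins, with 33.4 and 34.8 CPM (0.06, interval -0.08 to 0.20). MBTPS1, the protease that cuts first, had 104.3 and 85.7 CPM (-0.28). Like INSIG1, INSIG2 was thus lower, and it was the lowest of the SREBP machinery.

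Isoprenoid branches, which lead from the same precursors to dolichol, ubiquinone and prenylated proteins, had 7 of 11 genes lower, against 57% of all genes. Their median was -0.05, close to that of all genes, and turned to 0.01 relative to genes of like transcript length or of like CPM. DOLK, the dolichol kinase, was lowest with 45.4 and 26.9 CPM (-0.74, interval -0.90 to -0.62), and PDSS2 highest with 9.69 and 11.5 CPM (0.22, interval -0.01 to 0.50). Electron donors and sterol accessory proteins had 4 of 7 genes lower, near the share of 57% over all genes. Their median was -0.07, or -0.022 with the median of all genes set to 0 and -0.11 relative to genes of like CPM. They ranged from LBR, also a sterol reductase, with 99.3 and 77.9 CPM (-0.35), to CYB5A with 35.6 and 39.9 CPM (0.16). POR, which passes electrons to CYP51A1 and SQLE, had 46.5 and 37.9 CPM (-0.29).

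For cholesterol traffic, efflux and LXR, 10 of 12 genes that passed the filter were lower. Their median was -0.15, or -0.10 with the median of all genes set to 0 and -0.086 relative to genes of like transcript length. The lowest of those averaging 10 CPM or more was LPCAT3, a phospholipid acyltransferase, with 142.3 and 111.6 CPM (-0.35), and the highest was NR1H3, which encodes LXR alpha, with 11.4 and 14.6 CPM (0.33, interval 0.13 to 0.59). The efflux pump ABCA1, a known LXR target, had 1.37 and 1.33 CPM, and ABCG1 was listed at 0 in both libraries, which allows up to 0.125 and 0.121 CPM. Esterification and storage had 7 of 8 genes lower (median -0.28). They ranged from LIPA, the lysosomal acid lipase, with 135.5 and 100.1 CPM (-0.43), to PLIN3 with 67.1 and 67.4 CPM (0.00). SOAT1, which esterifies cholesterol, had 141.8 and 107.2 CPM (-0.40).

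Other genes of fatty acid synthesis lay on both sides of 0. Of 19, 14 were lower and 5 higher (median -0.19), with 6 lower and 2 higher by at least 0.32 on the log2 scale, against 18.4% and 9.04% of all genes. ELOVL1, an elongase of very long chains, was lowest with 167.9 and 108.3 CPM (-0.63, interval -0.70 to -0.56). ACSS2, which makes acetyl-CoA from acetate, was highest with 33.4 and 42.8 CPM (0.35, interval 0.23 to 0.49). SLC25A1, the citrate carrier, had 143.6 and 155.5 CPM (0.11), and ME1, the malic enzyme that supplies NADPH, had 39.6 and 49.6 CPM (0.317). ME1 is not among the 2 counted as higher, because the threshold before rounding was 0.322. The elongases ELOVL2 and ELOVL5, which act on polyunsaturated chains, had log2 ratios of -0.56 and -0.38. SLC25A1, ME1, ELOVL2 and ELOVL5 were named after their values were seen, as were MBTPS1, POR, ABCA1, ABCG1, SOAT1 and ACSL1.

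Glycerolipid synthesis had 7 of 10 genes lower (median -0.17), with GPAM, which starts the pathway, at 18.97 and 11.91 CPM (-0.63, interval -0.89 to -0.46) and AGPAT3 at 34.0 and 34.3 CPM (0.01). Of the acyl-CoA synthetases, 2 of the 3 that passed the filter were lower (median -0.10, or -0.012 relative to genes of like transcript length and -0.046 with the median of all genes set to 0), with ACSL3 at 241.6 and 198.6 CPM (-0.28) and ACSL4 at 39.9 and 37.2 CPM (-0.10). ACSL1, below the filter, had 0.58 and 1.21 CPM (0.48, interval 0.09 to 2.08). Of 4 bile acid genes that passed the filter, 3 were lower (median -0.06, which turned to 0.04 relative to genes of like CPM), and each interval included 0. SLC27A5 had 18.1 and 20.1 CPM (0.14) and CYP27A1 11.8 and 11.5 CPM (-0.03).

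**Figure D5:**
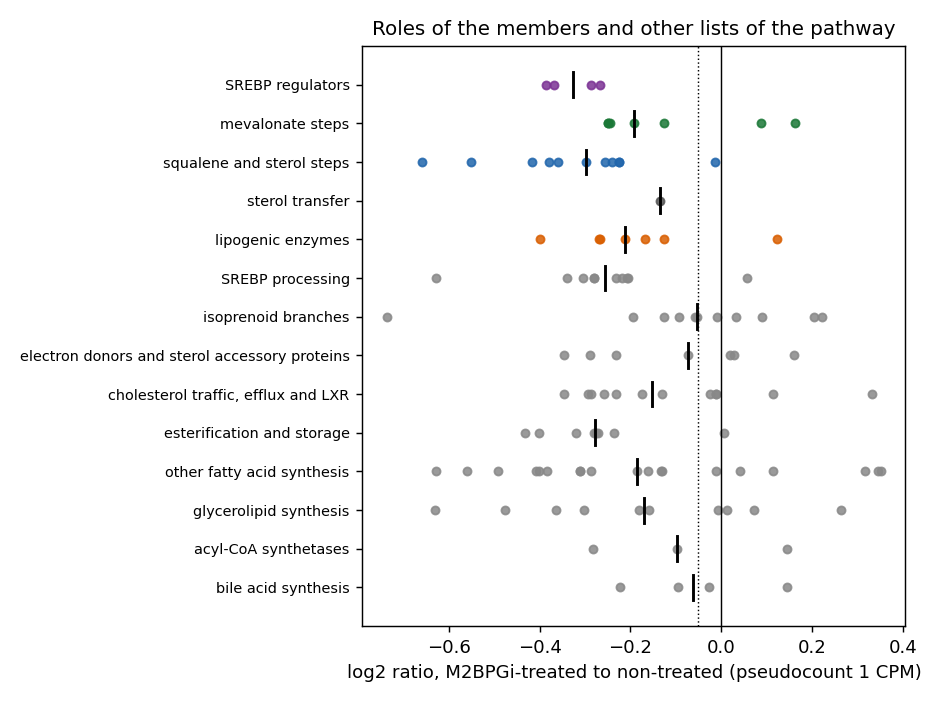
Log2 ratios (pseudocount 1 CPM) of the genes averaging 1 CPM or more, by role of the members (coloured) and by other list of the pathway (grey); black bars are medians and the dotted line is the median of all genes tested. As plotted, the SREBP regulators have the lowest median at -0.33, and isoprenoid branches the highest at -0.05. Relative to genes of like transcript length, the squalene and sterol steps were lowest (-0.27). Relative to genes of like CPM, bile acid synthesis was highest (0.04).

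The hepatoma label was checked against 11 markers, all of them listed. KRT18 had 1250 and 1592 CPM, KRT8 834.9 and 811.5 CPM, and AFP, the fetal liver protein raised in many hepatomas, 695.4 and 565.6 CPM. FGB (950 and 622.7 CPM), SERPINA1 and APOA2 were abundant too, whereas ALB, APOA1 and TTR were below 10 CPM in both libraries. The summed CPM of the 11 was 4761 and 4418. Of them, 7 were lower and 4 higher, with a median log2 ratio of -0.26 and quartiles of -0.35 and 0.09, against quartiles of -0.34 and -0.17 for the 30 members. Relative to genes of like CPM the medians were -0.18 for the markers and -0.34 for the members. Of markers of other cells, PTPRC was listed at 0 in both libraries and COL1A1 had 0.67 and 0.76 CPM. The summed leukocyte markers, with 2 of 4 listed, were 32.1 and 29.2 CPM, all of it LYZ. Of 4 stroma markers 1 was listed, and of 3 endothelial markers 0. Secreted-protein genes of this list differed from each other, from FGB and SERPINA1 (log2 ratios -0.61 and -0.56) through AFP (-0.30) to APOA1 and APOA2 (0.07 and 0.11). The part of these markers in the members' difference was not tested.

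Tags of a gene with a near-identical copy can be assigned to either, and the counting rule is not given in the sources used here. A match of at least 100 nt with at least 95% identity to the first 500 nt of a transcript was found for 6 members, CYP51A1, FADS1, FDPS, HSD17B7, MVD and SCD, whose values are therefore uncertain. Of the copies, HSD17B7P2 had 52.5 and 40.7 CPM, more than HSD17B7 itself, and SCDP1 had 9.65 and 7.4 CPM. CYP51A1P2 was listed at 0. Matches of FADS1 and MVD were of 101 to 314 nt, to genes of other names, and whether they are copies of the gene was not tested. Of the 10 listed protein-coding genes that matched FADS1 or MVD, 5 were higher and 5 lower with M2BPGi. Those with the most CPM were UTP11 (87.0 and 99.5 CPM) and PLA2G16 (58.2 and 70.8 CPM) for FADS1, and SAR1B (56.6 and 66.0 CPM) for MVD. TM7SF2 and FADS2 share a strand and a stretch of genome with VPS51 (26.3 and 39.1 CPM) and FEN1 (41.9 and 38.9 CPM). Median log2 ratios of all genes also differed with transcript length, from -0.02 to 0.08 in the 2 shortest of 10 groups to -0.13 in the longest. Members had a median longest transcript of 3290 nt, against 3220 nt for all genes tested. Relative to genes of like length, the median of the sterol pathway enzymes stayed within counting error of its value of -0.25.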

How the data were processed

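CAGE tags were measured in 1 library of non-treated and 1 library of M2BPGi-treated PLC/PRF/5 cells. Per the submitters' processing notes, BWA and HISAT2 were used with the human build hg19, while the methods name a mouse genome. The identifiers are human. The authors deposited CPM per gene, rounded to 2 decimals, and the rule that assigned tags to genes is not given in the sources used here. The libraries were compared by log2 ratios with a pseudocount of 1 CPM, over genes averaging 1 CPM or more. As each group has 1 library, a fold of 1.5 took the place of a test. The members and lists were chosen with earlier results of these data known.

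Tag numbers were read from the CPM steps, and serve only for the counting intervals. Of the values up to 20 tags, 87.6% and 94.1% were within 0.1 tag of a whole number in non-treated and M2BPGi-treated cells. The rounding alone can exceed this tolerance, and all values were whole within the rounding. With these shares the tags were still not taken as recovered reads, so the count tests that had been planned were not run. The functions were tested on simulated data. A count of 0 allows up to 3 tags.

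Named were every member, with intervals for the regulators, STARD4 and the 5 highest and 5 lowest, and in each other list the highest and lowest gene averaging 10 CPM or more. A hepatoma marker of the original list is not reported here, and the marker counts and medians are without it. Copies were searched in GENCODE v29 transcripts with BLAST+ 2.17.0, and positions are GRCh38. ACACA was matched there by symbol and the other 29 members by identifier. Transcript length was known for 98.8% of the genes tested. Python 3.11.15, numpy, scipy, pandas and matplotlib were used. Alternatives were other pseudocounts, filters, folds and scalings, members without a copy, and log2 ratios relative to genes of like transcript length. A trimmed mean scaling on the CPM, the bound of 20 CPM and log2 ratios relative to genes of like CPM were added after seeing the data.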

Additional observations from a re-analysis of the deposited data

How the results depend on the processing

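The median log2 ratios of all members, sterol pathway enzymes and lipogenic enzymes stayed below 0 under each alternative. Relative to genes of like mean CPM (10 groups), an alternative added after seeing the data, they were -0.34, -0.35 and -0.33, further from 0 because most members are abundant and abundant genes had higher log2 ratios. Relative to genes of like transcript length (10 groups), the median of the lipogenic enzymes was -0.081, as several of them have long transcripts and such genes had lower log2 ratios. The number of members at least 1.5-fold lower was 1, and relative to genes of like CPM it was 2 (EBP and SC5D). With a threshold of 0.32 on the log2 scale it was 8 and at a fold of 2 it was 0. Of the 8, SREBF1, SCAP, SCD and LSS fell short of 0.32 relative to genes of like transcript length. Under both scalings, SCAP and LSS did. Relative to genes of like CPM, further members reached it, among them FDPS, MVD, FASN and FADS1. The numbers of members lower and with an interval on either side of 0 stayed within 1.5 times under each alternative. Under other pseudocounts and filters these numbers could not change. A pseudocount alters neither a sign nor an interval, and all members pass each filter. Of 180 log2 ratios of single members under an alternative, 131 moved by less than the counting error, 49 moved further, and 0 with an interval off 0 changed sign. Pseudocounts of 0.1 and 5 CPM could hardly move members averaging 22.1 CPM or more. All 49 came from the other alternatives, so that 131 of 180 overstates the stability. The interval of PMVK was above 0 under both scalings, that of FDFT1 below 0 relative to genes of like CPM, and those of STARD4, FADS2 and HSD17B7 included 0 under at least 1 alternative. FDFT1, whose interval includes 0 as deposited, changed sign under both scalings and relative to genes of like transcript length. Over all genes, 555 were at least 1.5-fold lower and 219 higher, and with the median set to 0 these were 412 and 298. With a pseudocount of 0.1 they were 856 and 336, with 5 they were 164 and 91, and over genes averaging 10 CPM or more they were 223 and 135.

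The factors and exact tests of edgeR and the exact binomial test were not run, because the CPM were not taken as recovered reads. No paired analysis was possible because each group has 1 library, and for the same reason no library was left out. Depth gave the members counting errors with a median of 0.06 on the log2 scale. The variation between cultures is unknown.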
